A study of Mus musculus with 3 samples.

Results

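Levels of 9 genes, Ppara and targets of the receptor it encodes, were followed across spatial sections of the mouse heart after ischemia and reperfusion. They were chosen by symbol from the 32285 genes counted in every section, and comprised Pdk4, Angptl4, Ucp3, Ucp2, Acot1, Acot2, Plin2, Plin5 and Ppara. Spatial RNA sequencing on Visium slides gave counts of unique molecular identifiers (UMIs) in spots that each cover a small patch of tissue and can hold several cells. There was 1 section of each condition, cut from a small frozen piece of heart of young adult C57BL/6 mice. The sham mouse received vehicle by gavage for 7 days and then had a needle passed without ligation. The I/R mouse received the same vehicle for 7 days, then ligation of the left anterior descending coronary artery (LAD) for 30 min and reperfusion for 24 h. The SBP mouse received Shexiang Baoxin Pill (labelled MUSKARDIA), a Chinese patent medicine for coronary disease, for 7 days before the same ligation and reperfusion. The study asked what the pretreatment changes in the injured heart. With 1 mouse and 1 section a condition, no test between conditions was possible and no p-value is given; every interval below covers counting error only. The condition, the plane of the cut, the time of collection and the individual mouse cannot be told apart.

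PPAR-alpha is a nuclear receptor that is activated by fatty acids, pairs with a retinoid X receptor on DNA and switches on genes for the uptake, storage and oxidation of fat. It is prominent in heart muscle, which burns mostly fatty acids. Several of its targets also answer to other signals: Pdk4, Angptl4 and the uncoupling proteins change with fasting, glucocorticoids and the hour of the day, and Angptl4 and Plin2 also respond to PPAR-delta and to low oxygen. The feeding state and the hour at collection were not given per mouse in the sources used here.

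Pdk4 lies on chr6:5483351-5496309 of GRCm38 (minus strand), Angptl4 on chr17:33773750-33781830 (minus), Plin2 on chr4:86648386-86670060 (minus), Plin5 on chr17:56111601-56117596 (minus) and Ppara on chr15:85734983-85802819 (plus). Ucp3 (chr7:100472990-100486432, plus strand) and Ucp2 (chr7:100493337-100502020, plus) are neighbours with 6904 bases between them. Acot2 (chr12:83987861-83993873, plus) and Acot1 (chr12:84009490-84018371, plus) are close paralogs with 15616 bases between them, so reads could be split between them in counting and their separate values are uncertain. The promoters of 8 of the 9 genes, from 250 bases before to 50 bases after the RefSeq start site in GRCm38.p6, were searched on both strands for the nuclear receptor hexamer AGGTCA (in 16.3% of 32851 promoters), its direct repeat with 1 spacer base (DR1), which PPAR-alpha binds best (in 0.0396%), the E-box CACGTG of the clock (in 7.15%) and the FOXO motif GTAAACA (in 3.65%). Only exact matches were counted, so imperfect forms of a motif were not searched. The search for the hexamer also finds the direct repeat. The windows below are those of Pdk4 and of Ucp3, which were lower in both injured sections, and of Ucp2 and Plin2, which were higher in I/R. Capitals mark the motifs.
Pdk4 (chr6:5496229-5496528, minus strand): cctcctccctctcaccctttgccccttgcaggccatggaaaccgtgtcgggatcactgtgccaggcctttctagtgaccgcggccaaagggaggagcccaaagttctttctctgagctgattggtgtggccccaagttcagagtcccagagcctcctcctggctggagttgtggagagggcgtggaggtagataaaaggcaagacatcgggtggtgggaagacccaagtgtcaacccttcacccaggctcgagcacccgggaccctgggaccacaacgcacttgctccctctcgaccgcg
Ucp3 (chr7:100472741-100473040, plus strand): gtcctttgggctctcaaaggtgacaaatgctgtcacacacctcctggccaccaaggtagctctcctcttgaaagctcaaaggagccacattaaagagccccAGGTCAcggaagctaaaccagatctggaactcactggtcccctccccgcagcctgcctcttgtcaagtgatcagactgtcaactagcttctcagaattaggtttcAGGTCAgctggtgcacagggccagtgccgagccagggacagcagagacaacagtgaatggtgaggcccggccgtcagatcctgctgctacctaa
Ucp2 (chr7:100493108-100493407, plus strand): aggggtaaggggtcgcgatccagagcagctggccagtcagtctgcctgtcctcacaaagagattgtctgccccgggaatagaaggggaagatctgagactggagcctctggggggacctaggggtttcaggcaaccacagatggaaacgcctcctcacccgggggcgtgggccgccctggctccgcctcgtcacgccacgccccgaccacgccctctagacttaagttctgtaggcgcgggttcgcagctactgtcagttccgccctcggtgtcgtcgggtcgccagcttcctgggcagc
Plin2 (chr4:86670010-86670309, minus strand): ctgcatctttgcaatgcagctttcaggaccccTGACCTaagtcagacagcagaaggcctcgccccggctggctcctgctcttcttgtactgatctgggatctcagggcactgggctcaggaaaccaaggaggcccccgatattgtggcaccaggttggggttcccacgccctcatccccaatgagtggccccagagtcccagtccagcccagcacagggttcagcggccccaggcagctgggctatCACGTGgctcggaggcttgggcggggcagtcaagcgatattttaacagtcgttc
Ucp3 held AGGTCA at -149 and -44 from the start site, and Plin2 held its reverse complement TGACCT at -218 and CACGTG at -4. Plin5, with start sites in 2 windows, held AGGTCA at -170 in the first and at 14 in the second. The windows of Pdk4, Ucp2, Acot1, Acot2 and Ppara held no exact match to any of the motifs, and no window held an exact direct repeat. These matches describe letters in short windows and are not evidence of binding.

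The kept spots were 2234 of sham, 2082 of I/R and 1960 of SBP, with a median of 10645, 14672 and 10652.5 UMIs a spot. All 8 cardiomyocyte markers were detected in every section, and their sum was 31201 counts per 1000000 UMIs of the section (CPM) in sham, 23699 in I/R and 26742 under SBP. The neutrophil marker sum was 27.2, 236 and 115 CPM in the same order, and that of 8 injury genes (among them Timp1, Spp1, Tnc and Lgals3) was 578, 1921 and 1006 CPM. In spots that mix cells, fewer cells of a type and less RNA per cell cannot be told apart. The 3 sections shared 1091 spot barcodes, which are positions printed on every slide and not shared cells.

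Pdk4 and Ucp3 were lowest in SBP, intermediate in I/R and highest in sham, whereas Angptl4, Ucp2 and Plin2 were highest in I/R. Of the 8 genes that reached 50 UMIs in a pair of sections, 3 were at least 1.5-fold higher in I/R than in sham (Angptl4, Ucp2 and Plin2) and 3 at least 1.5-fold lower (Pdk4, Ucp3 and Plin5). Over all 12231 genes measured alike, 23.2% were higher by that fold and 3.49% lower, with a median log2 ratio of 0.24 against -0.25 for the 8 genes. In SBP against I/R, 5 of the 8 were lower (Pdk4, Angptl4, Ucp3, Ucp2 and Plin2) and 0 higher, against 13.8% and 1.95% of all genes. In SBP against sham, 2 were lower (Pdk4 and Ucp3) and 0 higher, against 2.77% and 5.31% of all genes. Setting the median of all genes to 0 moved the share of higher among all changed genes from 86.9% to 57.1% between I/R and sham, from 12.4% to 34.3% between SBP and I/R, and from 65.7% to 49.4% between SBP and sham. The members' counts after that centring were 3 higher and 3 lower, 0 and 4 (Ucp2 no longer passed), and 0 and 2.

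**Figure D1:**
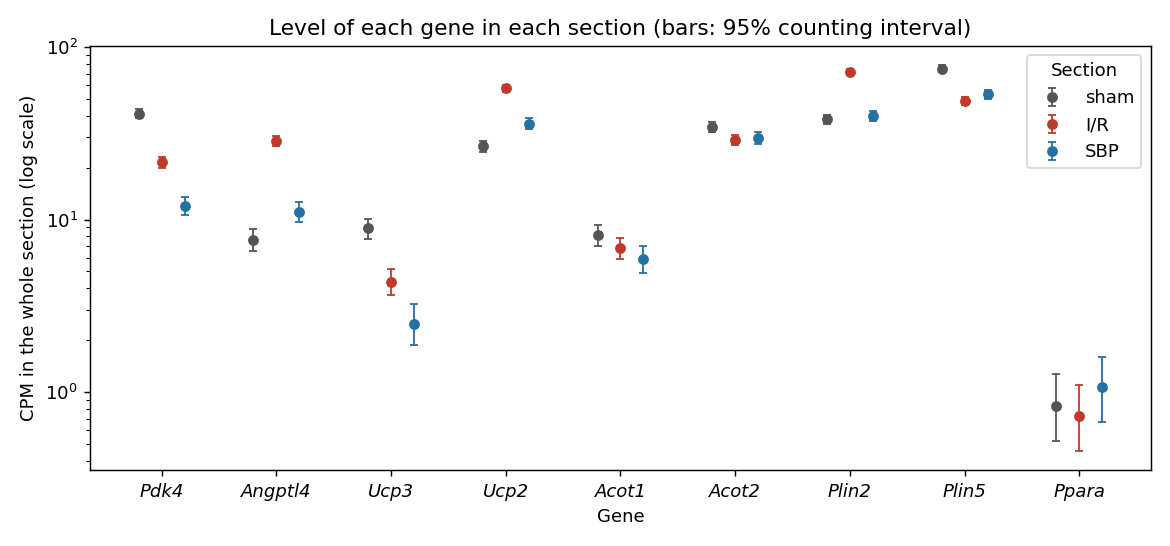
CPM of each gene (log axis) in the sham, I/R and SBP section, with exact Poisson 95% intervals; levels are to be compared within a gene only. Pdk4 goes from 41.1 CPM in sham to 12.0 in SBP, while Angptl4 is at 28.4 in I/R and below that in both other sections.

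**Figure D2:**
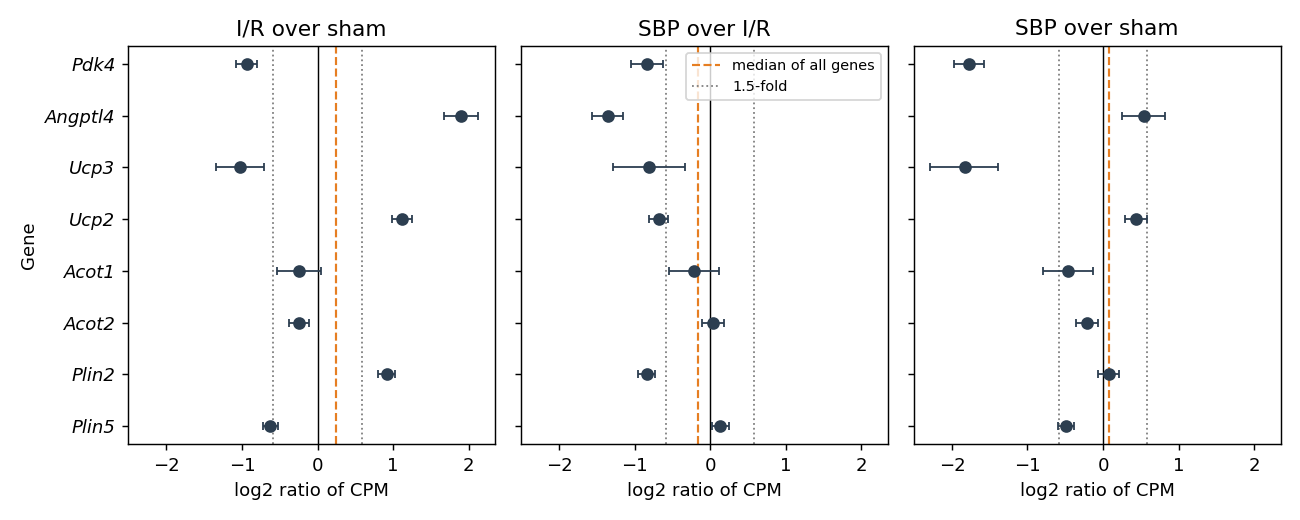
log2 ratio of CPM between sections for the 8 genes with sufficient UMIs, with exact binomial 95% counting intervals; the dashed line is the median of all genes and the dotted lines mark 1.5-fold. Pdk4 and Ucp3 lie left of the lower 1.5-fold line in all 3 comparisons.

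Pdk4 encodes pyruvate dehydrogenase kinase 4, which phosphorylates and shuts off pyruvate dehydrogenase and so spares glucose when fat is burned. It was counted 1033 times in sham (41.1 CPM), 649 times in I/R (21.5 CPM) and 260 times in SBP (12.0 CPM). Each section's interval was clear of the other two, so the order sham, I/R, SBP exceeded counting error. The log2 ratio was -0.94 between I/R and sham (-1.08 to -0.80), -0.84 between SBP and I/R (-1.05 to -0.63) and -1.77 between SBP and sham (-1.98 to -1.58). Among all genes measured, 0.715% had a lower ratio in the first comparison, 6.75% in the second and 0.149% in the third. Per UMI of the cardiomyocyte markers, the I/R over sham ratio was -0.54, under the 1.5-fold mark, as was that of Plin5 (-0.23), while Ucp3 was at -0.63.

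Of the complex that Pdk4 regulates, the subunit gene Pdha1 was also lower in I/R. All 12 genes listed for pyruvate dehydrogenase and its regulators were measured, and their median log2 ratio of I/R over sham was -0.36, with 3 genes at least 1.5-fold lower and 1 higher, against 3.49% and 23.2% of all genes. Pdha1, the catalytic alpha subunit, was at 823 CPM in sham, 438 in I/R and 666 under SBP. The kinase Pdk2 (143, 91.0 and 127 CPM) and the phosphatase Pdp2 (17.4, 9.19 and 10.5 CPM) were the other genes lower in I/R, and the kinase Pdk3 (1.87, 3.54 and 2.45 CPM) was the gene that was higher. Pdhb, the beta subunit, was at -0.38 on the log2 scale. In SBP against I/R, Pdha1 was higher by 0.60 on the log2 scale, whereas Pdk4 was lower still. The pyruvate carrier genes Mpc1 and Mpc2 changed less, by -0.08 and -0.17 for I/R over sham. None of these values was scaled to the cardiomyocyte sum, which was itself lower in I/R (23699 CPM) than in sham (31201 CPM). Per UMI of those markers, Pdk4 was at -0.54 for I/R over sham in place of -0.94, under 1.5-fold. Pdha1 (-0.91), Pdk2 and Pdp2 were each less lowered than Pdk4 on the CPM scale. The same scaling therefore leaves none of the 3 at 1.5-fold lower.

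The uncoupling proteins are mitochondrial carriers, with Ucp3 found mainly in striated muscle and Ucp2 in many cells including leukocytes. Ucp3 followed the order of Pdk4, with 223 UMIs in sham (8.88 CPM), 132 in I/R (4.37 CPM) and 54 in SBP (2.496 CPM). Its log2 ratio was -1.02 between I/R and sham (-1.35 to -0.71), -0.81 between SBP and I/R (-1.29 to -0.34) and -1.83 between SBP and sham (-2.29 to -1.40). Its neighbour Ucp2 went the other way in I/R, from 667 UMIs in sham (26.6 CPM) to 1742 in I/R (57.6 CPM), and had 777 in SBP (35.9 CPM). The Ucp2 ratios were 1.12 between I/R and sham (0.99 to 1.25) and -0.68 between SBP and I/R (-0.81 to -0.56). In SBP, Ucp2 was 1.35-fold the sham level (log2 0.44, 0.28 to 0.59).

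Acot1 and Acot2 encode the cytosolic and the mitochondrial acyl-CoA thioesterase, which release free fatty acids from acyl-CoA. Neither reached 1.5-fold between whole sections. Acot1 was at 8.08 CPM in sham, 6.81 in I/R and 5.87 under SBP, and Acot2 at 34.4, 29.0 and 29.7 CPM. Between I/R and sham both stood at a log2 ratio of -0.25, and the interval for Acot1 (-0.53 to 0.04) included 0. Between SBP and sham, Acot1 was at -0.46 (-0.79 to -0.13) and Acot2 at -0.21 (-0.36 to -0.06).

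Among the lipid storage genes, Plin2 coats lipid droplets in many cell types, Plin5 couples droplets to mitochondria in oxidative muscle, and Angptl4 is a secreted inhibitor of lipoprotein lipase. Angptl4 had the largest fold of the 8 between I/R and sham, from 192 UMIs in sham (7.64 CPM) to 860 in I/R (28.4 CPM), and stood at 240 in SBP (11.1 CPM). Its I/R level was 3.72-fold that of sham (log2 1.90, 1.67 to 2.13), and its SBP level was 0.390 of that in I/R (log2 -1.36, -1.57 to -1.15). Plin2 was at 38.0 CPM in sham, 71.7 in I/R and 40.0 under SBP, so that SBP and sham differed by a log2 ratio of 0.07 (-0.06 to 0.21) and I/R and sham by 0.91. Plin5 was at 74.9 CPM in sham, 48.5 in I/R and 53.2 under SBP, a log2 ratio of -0.63 between I/R and sham (-0.73 to -0.53) and of 0.13 between SBP and I/R (0.02 to 0.25). Of 9 measured genes of droplet turnover, Hilpda, a hypoxia-induced inhibitor of the main triglyceride lipase, was at least 1.5-fold higher in I/R than in sham (3.26 and 5.26 CPM), and Dgat2, a triglyceride synthase, at least 1.5-fold lower (172 and 106 CPM). That lipase, Pnpla2, was at 256 CPM in sham, 195 in I/R and 339 under SBP. Over all genes, 23.2% were higher in I/R than in sham by that fold and 3.49% lower. Relative to the all-gene median, 0 of the 9 droplet genes were higher and 4 lower, against 12.7% and 9.52% of all genes. On that scale 4 of the 8 cardiomyocyte markers were lower too, and the droplet genes were not scaled to their sum.

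Ppara mRNA was near the limit of what these libraries could show, with 21 UMIs in sham, 22 in I/R and 23 under SBP (0.836, 0.728 and 1.06 CPM). The 3 intervals overlapped, and no difference was detectable at this depth. The related receptors were at 7.64, 8.83 and 6.75 CPM (Ppard) and 1.63, 2.45 and 2.36 CPM (Pparg) in sham, I/R and SBP. None of the 12 listed receptors, partners and coactivators reached 1.5-fold on the CPM scale in any comparison of whole sections. Pparg, at a low level, lay at the edge of that fold between I/R and sham. Of all genes, 23.2% were higher and 3.49% lower in I/R than in sham. Those shares were 1.95% and 13.8% for SBP against I/R, and 5.31% and 2.77% for SBP against sham. Relative to the all-gene median, 3 of the 12 were lower in I/R than in sham, against 9.52% of all genes. Among these were Esrra (-0.70) and Ncor1 (-0.60). On that scale 4 of the 8 cardiomyocyte markers were lower too, and these genes were not scaled to their sum. Rxra, the usual partner of PPAR-alpha, was at 23.4, 23.3 and 25.4 CPM.

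Of 28 further PPAR-alpha targets of fatty acid uptake and oxidation, 27 were measured and 0 reached 1.5-fold in I/R against sham, with a median log2 ratio of -0.27. Over all genes, 23.2% were higher and 3.49% lower in that comparison, with a median of 0.24. Among the most abundant were Fabp3, the cytosolic fatty acid binding protein (4179 CPM in sham, 2820 in I/R and 3415 under SBP), and Lpl, lipoprotein lipase (2628, 1846 and 2585 CPM). In SBP against I/R the median was 0.17, with 1 gene higher and 0 lower, against 1.95% and 13.8% of all genes. Relative to the all-gene median, 3 were higher and 0 lower, against 4.32% and 8.27% of all genes. In SBP against sham the median was -0.06, with 1 gene higher and 1 lower, against 5.31% and 2.77% of all genes. Both counts were near those shares. The lower gene was Ehhadh, a peroxisomal beta-oxidation enzyme. Relative to the all-gene median, 9 of the 27 were at least 1.5-fold lower in I/R than in sham, against 9.52% of all genes. Of the 8 cardiomyocyte markers, 4 were lower on that scale too, and their median log2 ratio was -0.34. None of the 27 was as much lower in SBP than in sham as Pdk4 or Ucp3.

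Clock genes, which set the daily rhythm of many metabolic genes, also differed between I/R and SBP. Of 11 genes switched on through E-boxes and D-boxes, 10 were at least 1.5-fold higher in SBP than in I/R (median log2 ratio 0.90). Against sham, 7 were higher in SBP. Over all genes, 1.95% were higher in SBP than in I/R and 5.31% higher in SBP than in sham. Dbp, a clock output factor, was at 74.2 CPM in sham, 52.1 in I/R and 131 under SBP. Per2, a core clock repressor, was at 4.42, 3.84 and 8.60 CPM. Of 6 genes of the opposite arm, repressed by Rev-erb, 3 were lower in SBP than in I/R (Arntl, Npas2 and Clock), against 13.8% of all genes. Arntl, the core activator, was at 3.03, 3.97 and 0.693 CPM, a log2 ratio of -2.52 for SBP over I/R (-3.40 to -1.74). Between I/R and sham, 1 of the 11 genes was lower (Ciart), against 3.49% of all genes. Of the 6, 1 was higher (Nfil3), no larger a share than the 23.2% of all genes. Relative to the all-gene median, 6 of the 11 were lower there and 0 of the 6 higher, against 9.52% and 12.7% of all genes. The median log2 ratio of the 11 was -0.41 against 0.24 for all genes. Dbp was at -0.51, Tef at -0.57, Hlf at -0.49 and Nr1d1 at -0.49. Of the 8 cardiomyocyte markers, 4 were lower in I/R relative to the all-gene median too, and their median log2 ratio was -0.34. These clock values were not scaled to the cardiomyocyte sum. Of 9 fasting and FOXO genes, 0 passed in either direction between SBP and I/R, and Cebpd passed between I/R and sham (21.3 CPM in sham and 34.0 in I/R). Klf15 and Cebpd were the 2 that passed between SBP and sham, both higher in SBP, where 5.31% of all genes were higher. Relative to the all-gene median, 0 of the 9 passed in either direction against sham, in I/R or in SBP. On that scale, 12.7% of all genes were higher in I/R and 3.87% in SBP. The part of the clock or of feeding in the Pdk4 and Ucp3 values was not tested, and with 1 mouse a condition it cannot be told apart from the treatment.

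**Figure D3:**
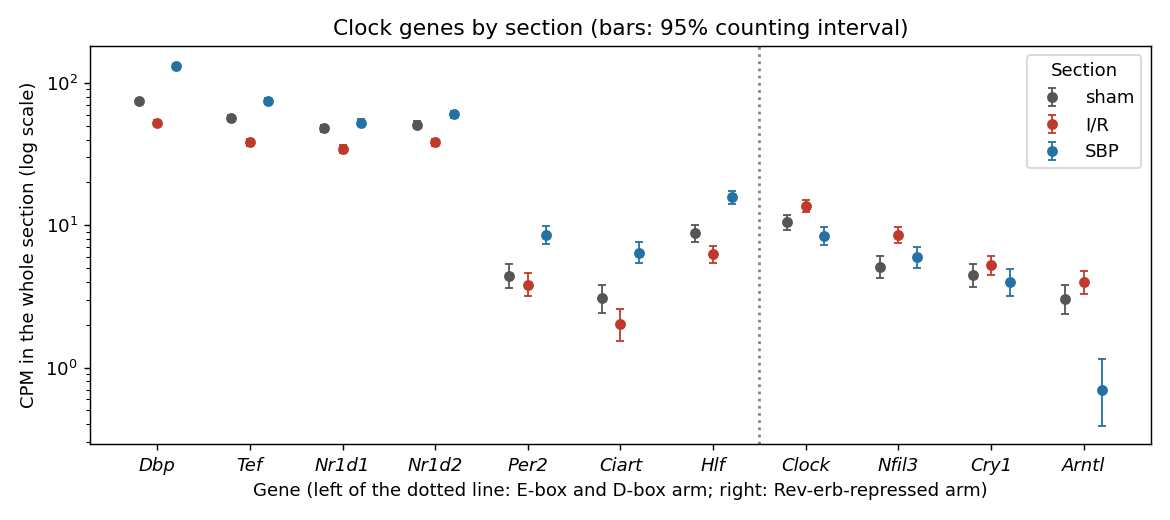
CPM of clock genes (log axis) by section with exact Poisson 95% intervals. In SBP the E-box and D-box arm (left) is above I/R for each gene plotted and Arntl (right) is at 0.693 CPM against 3.97 in I/R.

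Ankrd1, a stress gene of heart muscle that marks the border of injury, was then used to divide each section. Spots were called Ankrd1-high when they held more than 27.0 Ankrd1 UMIs per 10000 UMIs, the 95th percentile of sham, which applied to 112 sham spots (5.01%), 479 spots of I/R (23.0%) and 326 of SBP (16.6%). Pdk4 was higher in Ankrd1-high spots of sham, at 68.3 CPM against 39.0 in the others (log2 0.81, 0.53 to 1.08). Relative to the all-gene median of 0.31 there, Pdk4 was at 0.50, under 1.5-fold. It was 23.6 against 20.7 CPM in I/R and 12.5 against 11.9 CPM in SBP, where both intervals of the ratio included 0. Angptl4 was higher in Ankrd1-high spots of every section, with log2 ratios of 1.44 (sham), 0.49 (I/R, under 1.5-fold, beside an all-gene median of 0.24) and 1.15 (SBP). Acot1, Acot2 and Ucp3 were at least 1.5-fold lower there in all 3 sections, though on few UMIs in part. Ucp3 rested on 11, 23 and 4 UMIs in the Ankrd1-high spots of sham, I/R and SBP, and Acot1 on 9, 29 and 11, and the intervals of both included 0 in sham. The cardiomyocyte sum was lower in Ankrd1-high than in other spots too, at 24563 against 31727 CPM in sham, 19390 against 25295 CPM in I/R and 21806 against 27834 CPM in SBP. Per UMI of these markers, Acot1, Acot2 and Ucp3 no longer passed in sham (-0.40, -0.46 and -0.24), nor did Ucp3 in I/R (-0.43) or Acot2 in SBP (-0.31). Plin5 differed by -0.12 in sham, by -1.15 in I/R and by -0.61 under SBP. Per UMI of these markers, Plin5 was at 0.25, -0.76 and -0.25, so that it no longer passed in SBP.

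Counted together, 3 genes were higher and 3 lower in Ankrd1-high spots of sham, where 28.3% of all genes were higher and 6.08% lower. In I/R, 0 were higher and 4 lower, against 13.6% and 3.88% of all genes. In SBP, 1 was higher and 4 lower, against 16.6% and 5.02%. Centring on the all-gene median moved the share of higher among all changed genes in sham from 82.3% to 47.0%, in I/R from 77.8% to 33.6% and in SBP from 76.8% to 42.5%, and left 1, 0 and 1 of the members higher and 3, 4 and 4 lower. Of the 27 other PPAR-alpha targets, 12 were lower and 0 higher in the Ankrd1-high spots of I/R, against 3.88% and 13.6% of all genes. Of the 8 cardiomyocyte markers, 3 were lower and 0 higher there too. In sham 7 of 27 of these targets were lower, and in SBP 5 of 26, with 0 higher in either, and none of these counts was scaled to the cardiomyocyte sum. The median UMIs in Ankrd1-high and other spots were 14927 and 10501.5 in sham, 17348 and 14103 in I/R, and 11989.5 and 10453 in SBP.

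Pdk4 was lower in the injured sections in both kinds of spots. Within the other spots its log2 ratio was -0.92 between I/R and sham, -0.79 between SBP and I/R and -1.71 between SBP and sham. Within Ankrd1-high spots the same ratios were -1.53, -0.92 and -2.45. Both ratios against sham were larger in size in Ankrd1-high spots, a difference that was not tested.

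Ordering all spots of a section by Ankrd1 into 5 equal groups showed 2 shapes in I/R. Acot2 and Plin5 were lower toward high Ankrd1, from 45.9 CPM in the lowest group to 15.1 in the highest and from 63.5 to 24.9 CPM. Plin2 (41.7, 52.4, 105, 95.3 and 70.8 CPM), Ucp2 (26.5, 39.3, 81.8, 86.0 and 60.1 CPM) and Angptl4 (13.1, 16.6, 31.3, 46.0 and 35.7 CPM) were highest in the third group or the next and lower in the fifth. Pdk4 was nearly level, between 17.4 and 23.7 CPM in I/R and between 9.45 and 13.3 CPM in SBP. In sham it stood between 33.2 and 38.5 CPM in the 4 lower groups and at 57.8 CPM in the highest. The cardiomyocyte sum was lower in the highest than in the lowest group of each section. It was 28755 and 19449 CPM in the lowest and highest group of I/R, 29970 and 22070 in SBP, and 32958 and 26635 in sham. These shapes hold per UMI of all genes and were not scaled to the cardiomyocyte sum.

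**Figure D4:**
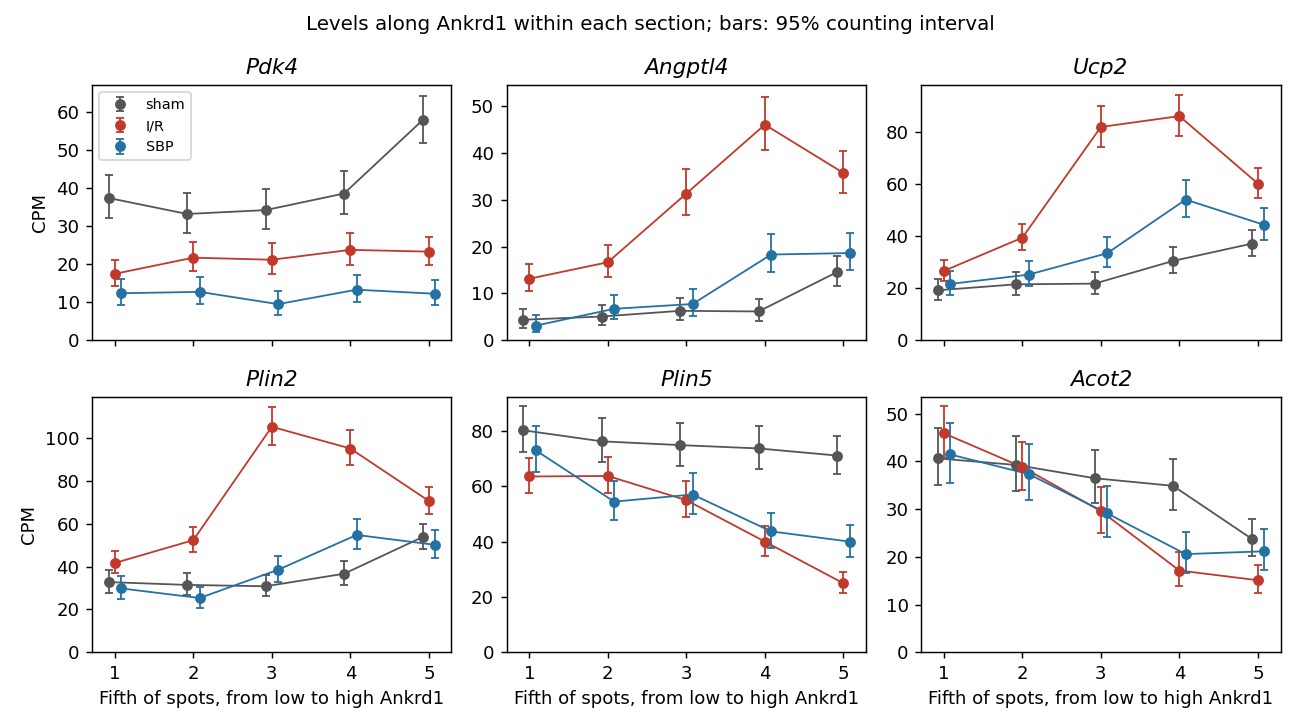
CPM of 6 genes in 5 equal groups of spots ordered by Ankrd1, per section, with exact Poisson 95% intervals. In I/R, Angptl4, Ucp2 and Plin2 peak in the third group or the next while Plin5 and Acot2 are lowest in the fifth. Pdk4 CPM stays nearly level in I/R and SBP, where the cardiomyocyte sum is lower in the fifth group than in the first.

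The peak below the highest Ankrd1 was followed with the sum of the 8 injury genes in place of Ankrd1. Injury-high spots, above 15.6 injury UMIs per 10000 UMIs (the 95th percentile of sham), made up 112 sham spots (5.01%), 813 spots of I/R (39.0%) and 384 of SBP (19.6%). Of the injury-high spots of I/R, 43.7% were also Ankrd1-high, and 74.1% of the Ankrd1-high spots were injury-high. In I/R, Plin2 was at 150 CPM in injury-high spots and 29.9 in the others, a log2 ratio of 2.32 (2.19 to 2.46). Ucp2 was at 120 and 24.5 CPM (2.29, 2.14 to 2.45), and Angptl4 at 58.4 and 12.5 CPM (2.22, 2.01 to 2.44). The other 5 measured genes were all at least 1.5-fold lower there, as with Plin5 (18.8 and 64.3 CPM, -1.78), Acot2 (11.7 and 38.2 CPM, -1.71) and Pdk4 (15.2 and 24.8 CPM, -0.70). The same 3 genes were higher in injury-high spots of sham and of SBP. Over all genes, 53.9% were higher and 5.94% lower in injury-high spots of sham, 63.7% and 6.6% in I/R, and 44.9% and 4.16% in SBP, so a higher count alone is common there, and the size is given beside the all-gene median of 0.65, 0.84 and 0.51. Of the members, 3 were higher and 2 lower in sham, 3 and 5 in I/R, and 3 and 3 in SBP.

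Cell markers moved along this division. In I/R, the cardiomyocyte sum was 15252 CPM in injury-high and 28196 CPM in other spots (log2 -0.89), and those of neutrophils (619 and 32.0 CPM), monocytes (221 and 27.2 CPM) and macrophages (591 and 159 CPM) were higher there. In sham, the injury-high spots had a fibroblast sum of 2085 CPM against 808 in the others and a neutrophil sum of 203 CPM, whereas those of I/R had a fibroblast sum of 1094 CPM, so the injury-high spots of the sections differ in their markers. Relative to the cardiomyocyte sum, the I/R ratio was 0.18 for Pdk4, -0.13 for Acot1, -0.69 for Ucp3, -0.82 for Acot2 and -0.89 for Plin5. Over the 1880 spots of I/R with at least 6500 UMIs, each thinned to that depth, Plin2 and Ucp2 correlated with the summed macrophage, monocyte and neutrophil markers (r = 0.47 and 0.45) and with the cardiomyocyte sum (r = -0.50 and -0.49). Spots of 1 section share a library and a mouse, so these are descriptions. Which cells held these transcripts was not tested.

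**Figure D5:**
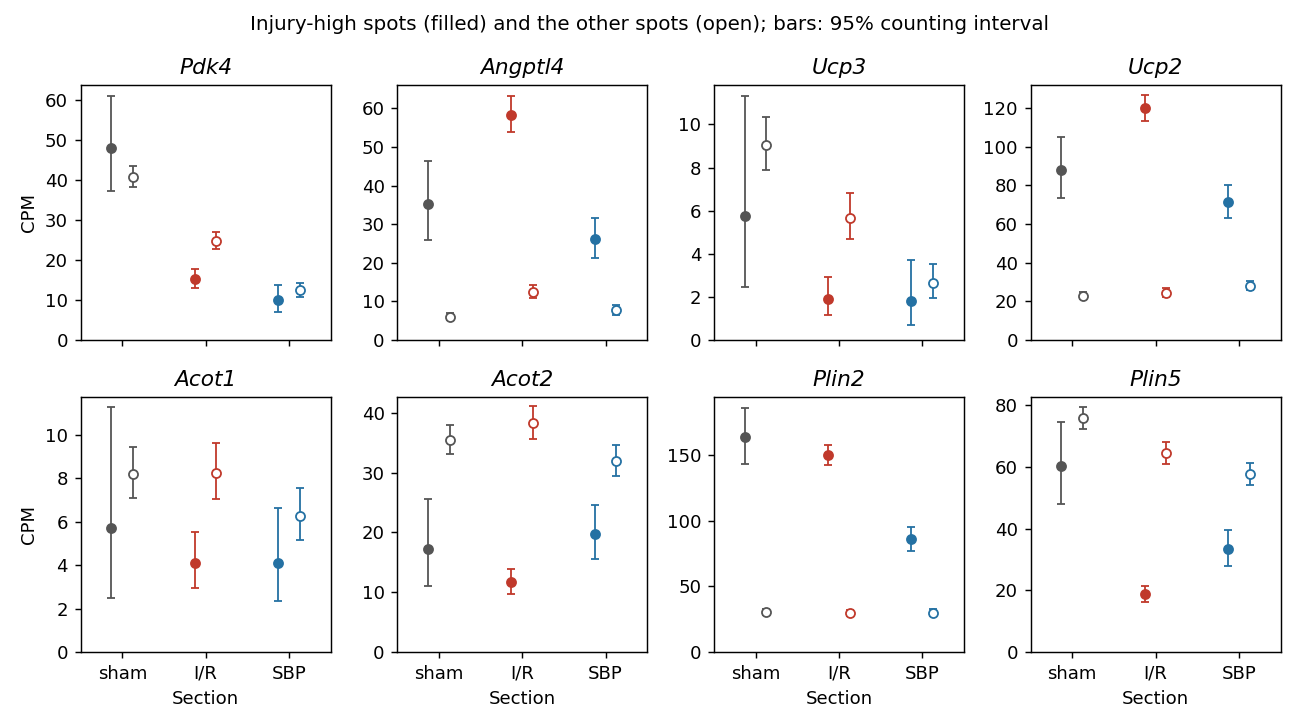
CPM of 8 genes in injury-high spots (filled) and in the other spots (open) of each section, with exact Poisson 95% intervals. Plin2 is near 30 CPM in the other spots of all 3 sections and between 85.8 and 163 CPM in injury-high spots, whereas Pdk4 is lower in I/R and SBP than in sham in both kinds of spots.

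Outside the injury-high spots, Plin2 was at 30.6 CPM in sham, 29.9 in I/R and 30.0 under SBP, and Ucp2 at 22.9, 24.5 and 28.2 CPM. Between I/R and sham the log2 ratio there was -0.03 for Plin2 (-0.19 to 0.13) and 0.09 for Ucp2 (-0.09 to 0.27). Angptl4 kept part of its difference, at 6.03 CPM in sham, 12.5 in I/R and 7.79 under SBP. Pdk4 was lower outside the injury-high spots too, at 40.7, 24.8 and 12.5 CPM, with a log2 ratio of -0.72 between I/R and sham and of -0.99 between SBP and I/R. Ucp3 went alike, at 9.06, 5.68 and 2.65 CPM. Within injury-high spots, 4 of 7 measured genes were at least 1.5-fold lower in SBP than in I/R, namely Angptl4 (log2 -1.16), Plin2 (-0.81), Ucp2 (-0.75) and Pdk4 (-0.61, -1.15 to -0.10), against 16.4% of all genes. Plin5 (0.83) and Acot2 (0.75) were higher, against 3.2% of all genes, while the cardiomyocyte sum there was higher in SBP by 0.37. Relative to that sum, Plin5 was at 0.46 and Acot2 at 0.38, both under 1.5-fold. The 4 lower genes stayed at least 1.5-fold lower relative to it. The 8 injury genes that defined these spots were lower in SBP too, with a median log2 ratio of -0.66 against -0.22 for all genes. Of these 8, 4 were at least 1.5-fold lower and 1 higher. From I/R to SBP, the neutrophil sum there was 619 and 427 CPM, the monocyte sum 221 and 128, and the macrophage sum 591 and 419. The injury-high spots of I/R and SBP were thus not matched in injury or cell markers.

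The spread of counts over spots differed between the members. After thinning, the variance of Plin2 over its mean was 2.21 in I/R, 1.52 in sham and 1.13 in SBP, and that of Ucp2 was 1.82, 1.14 and 1.23, where 1 is what random sampling gives. For Pdk4 it was between 1.04 and 1.10 in all sections. In I/R, Plin2 and Ucp2 correlated over the 2082 spots (r = 0.44), each correlated with Angptl4 (r = 0.24), and Ucp2 ran against Plin5 (r = -0.25). Of 1623 genes that reached 1000 UMIs in each section, those most like Pdk4 over spots were Lrg1, mt-Nd2, Lcn2, mt-Co3 and mt-Nd4, with a mean r over the sections of at most 0.14. At so sparse a count such weak values are no finding.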

How the data were processed

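Visium spatial RNA libraries of 1 section each of sham, I/R and SBP hearts were used. The deposited matrices hold raw UMI counts per gene and spot, which the authors made with Space Ranger 1.3.0 per the file headers, with mm10 named in the submitters' notes. No normalization had been applied. Spots with at least 200 detected genes were kept, which left out 3, 1 and 2 spots, and UMIs were summed over spots. CPM is UMIs per 1000000 UMIs of the spots summed. Section totals were 25118258, 30238530 and 21631280 UMIs, of which the 13 mitochondrial genes took 48.6%, 44.3% and 46.3%. Exact Poisson intervals (95%) were given for levels and exact conditional binomial intervals for log2 ratios; UMIs are molecules, and both cover counting error only. Genes that reached 50 UMIs over the compared groups were measured, and a change of at least 1.5-fold was called. A single section per condition allowed no test. Spots per section were divided by Ankrd1 or by injury genes, and thinned to 6500 UMIs for spread and marker correlations. Doublets do not apply to spots. The code was tested on simulated data (Python 3.11.15, numpy 2.4.6, scipy 1.17.1, pandas 2.3.3). Gene IDs were placed with GENCODE M21, in which 32235 of 32285 were found. The members, the gene lists and the injury division between sections were chosen with earlier results of these data known. Genes named are the members, the 4 most abundant genes of each list, those changed at least 2-fold with at least 100 UMIs and the 5 most like Pdk4; others that passed 1.5-fold were named after their values were seen, as were Ppard, Pparg and Hilpda. Alternatives were other scalings, filters, thresholds and regions, and, chosen after seeing the data, leaving out spots with a fat cell marker. Some genes of the lists are not reported here by name.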

Additional observations from a re-analysis of the deposited data

How the results depend on the processing

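Each whole-section ratio was recomputed under 9 alternatives and each ratio within a section under 7. No member ratio that passed 1.5-fold in the main setting turned its direction. Ratios under that fold in the main setting could change sign and pass in an alternative. In high over other spots of I/R, Plin2 was at -0.01 in the main setting and between -0.42 and 2.32 in the alternatives. Ucp2 was at 0.13 there and between -0.30 and 2.29, and Angptl4 at 0.49 and between 0.03 and 2.22. For Pdk4, the ratio of I/R to sham was -1.17 with TMM factors, -1.15 with median-of-ratios size factors and -0.54 per UMI of cardiomyocyte markers, and that of SBP to sham was -1.55 with the last. TMM moved all ratios of I/R to sham by -0.23 and of SBP to I/R by 0.16. Per cardiomyocyte UMI, 1 member in place of 3 was lower in I/R than in sham and 2 were higher in SBP than in sham; with equal weight for each spot, or with the top 1% of spots for a gene left out, 1 was higher there. The Pdk4 ratio in high over other spots was 0.24 in sham and -0.70 in I/R with injury genes, 1.18 and 0.58 per cardiomyocyte UMI, and -0.52 in SBP at the 99th percentile. Lower members in Ankrd1-high spots of sham were 1 at the 99th percentile and 0 per cardiomyocyte UMI. Higher members in I/R were 1 at the 90th percentile, 3 with injury genes and 1 per cardiomyocyte UMI, and in SBP 3 with injury genes and 3 per cardiomyocyte UMI. Lower members in SBP were 2 at the 90th percentile, 2 after thinning, 2 per cardiomyocyte UMI and 2 with at least 200 UMIs a gene. The cause of these moves was not tested, apart from the higher minimum, under which fewer genes are measured. Without spots that hold an adipocyte marker UMI, Pdk4 was at -0.94 between I/R and sham and at -0.85 between SBP and I/R. No paired analysis was possible because a condition had 1 section only. Depth limits Ppara (21 to 23 UMIs a section) and Ucp3 in Ankrd1-high spots of SBP (4 UMIs).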

Other observations

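Metallothioneins, which bind zinc and answer to glucocorticoids and to stress, were higher in both injured sections. Mt1 was at 311 CPM in sham, 585 in I/R and 528 under SBP, and Mt2 at 68.7, 187 and 184 CPM. Of 8 measured glucocorticoid-induced genes, 4 were at least 1.5-fold higher in I/R than in sham (Mt1, Mt2, Cdkn1a and Fkbp5) and 0 lower. Over all genes, 23.2% were higher and 3.49% lower. Relative to the all-gene median, 3 of the 8 were higher and 1 lower, against 12.7% and 9.52% of all genes. In SBP against I/R, 0 were higher and 2 lower, against 1.95% and 13.8% of all genes. Tsc22d3, a leucine zipper protein of the same group, was at 58.2, 51.9 and 66.9 CPM. Of 7 measured hypoxia-induced genes, Slc2a1, the basal glucose transporter, was the 1 that passed in I/R over sham (7.33 and 16.5 CPM), and Vegfa was at 49.0, 45.8 and 43.5 CPM across sham, I/R and SBP.

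Fat cell markers were found almost only in the SBP section, with 125 UMIs of 6 genes in 28 spots against 1 UMI in sham and 7 in I/R. Cfd, the adipocyte factor adipsin, gave 98 of the 125, and Adipoq 8. The 7 UMIs of I/R were all of Retn.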
